A study of Homo sapiens with 8 samples.

Results

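The microRNA (miRNA) and small nucleolar RNA (snoRNA) host genes are transcripts, mostly non-coding, whose introns or exons contain the precursor of an miRNA or a snoRNA. They were taken as all gene probes of the array whose gene name is MIR followed by any characters and HG, or SNHG followed by digits, or one of GAS5, H19, MALAT1 and NEAT1. This gave 131 of 58201 gene probes and 58 of 43317 gene names. Classed by name, these were 21 snoRNA hosts (the SNHG genes and GAS5), 35 miRNA hosts (H19 among them) and the nuclear long non-coding RNAs MALAT1 and NEAT1. Their level was measured in SAS cells, a cell line from a human squamous carcinoma of the tongue, on 8 one-colour Agilent SurePrint G3 Human GE v3 arrays. The 4 groups of 2 arrays each were cells transfected with a synthetic mimic of miR-629-3p, of miR-210-3p or of miR-874-3p, or with the negative control RNA (NC). The RNA was given at the same concentration in all groups. The labels name the cells SAS, while the study's text names them SAS/GFP, that is SAS cells carrying a GFP vector, and the time to extraction given in the labels, 48 h, and the kit also differ from the text. All groups went through transfection, so NC carries the effect of transfection itself, and no untransfected cells were among these arrays. The study followed these miRNAs as candidates in a search for miRNAs tied to cisplatin resistance, and the comparisons with NC address which transcripts move when each of them is raised.

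When a host gene is transcribed, the miRNA hairpin is cut out of the primary transcript by the Microprocessor complex, while a snoRNA is released from a spliced-out intron. The snoRNAs then guide the chemical modification of ribosomal RNA in the nucleolus, and the spliced host RNA is often a by-product that is degraded by nonsense-mediated decay. Several of these hosts are well known in squamous and other carcinomas: MIR17HG carries the miR-17 cluster, a target of MYC, MIR210HG carries the hypoxia-induced miR-210, MIR205HG carries the epithelial miR-205, and H19 is an imprinted fetal transcript that carries miR-675.

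The mimics and the mature miRNAs of the hosts discussed below are shown with the seed (bases 2 to 8 from the 5′ end), the part of an miRNA that pairs with its targets, in capitals. Sequences are from RefSeq, 5′ to 3′. The first group holds the transfected mimics as annotated, and the second the miRNAs inside the hosts whose signal is described in detail.
miR-629-3p (mimic): gUUCUCCCaacguaagcccagc
miR-210-3p (mimic, and product of MIR210HG): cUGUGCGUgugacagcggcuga
miR-874-3p (mimic): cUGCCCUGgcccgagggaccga
miR-17-5p (MIR17HG): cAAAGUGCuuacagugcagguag
miR-20a-5p (MIR17HG): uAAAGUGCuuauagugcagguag
miR-18a-5p (MIR17HG): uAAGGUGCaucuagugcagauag
miR-19a-3p (MIR17HG): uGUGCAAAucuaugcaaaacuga
miR-19b-3p (MIR17HG): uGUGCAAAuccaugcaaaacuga
miR-92a-3p (MIR17HG): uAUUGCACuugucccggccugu
miR-503-5p (MIR503HG): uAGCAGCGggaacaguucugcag
miR-31-5p (MIR31HG): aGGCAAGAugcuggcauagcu
miR-205-5p (MIR205HG): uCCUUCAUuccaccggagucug
miR-22-3p (MIR22HG): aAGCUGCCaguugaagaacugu
miR-100-5p (MIR100HG): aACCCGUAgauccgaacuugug
miR-125b-5p (MIR100HG): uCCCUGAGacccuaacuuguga
let-7a-5p (MIR100HG): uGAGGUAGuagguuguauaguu
miR-675-5p (H19): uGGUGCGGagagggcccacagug
Within MIR17HG, miR-17-5p and miR-20a-5p share the seed AAAGUGC, and miR-19a-3p and miR-19b-3p share GUGCAAA. The mimic of miR-210-3p is the product of 1 of the hosts, MIR210HG, and lies at chr11:568112-568133 (GRCh38.p14, minus strand). The miRNAs of the other mimics come from introns of protein-coding genes, miR-629 from TLE3 and miR-874 from KLHL3. The 7-base complement of the miR-629-3p seed, GGGAGAA, was found in 2 of the 131 host probes, 1 each for SNHG5 and SNHG4, against 0.747% of all gene probes on the array. The seed complement of miR-210-3p, ACGCACA, and that of miR-874-3p, CAGGGCA, were in 0 of the 131. These counts cover only the 60-base probes, not the whole transcripts.

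Signals are given as log2 of the background-corrected spot intensity relative to the array's 75th percentile, so that 0 is the 75th percentile, and a difference of 1 is 2-fold. Probes entered the test if no array lacked a value and if some group had both of its arrays well above background, and each gene name was represented by its brightest tested probe. In this way 81 host probes and 41 host names were tested among 21283 genes. The snoRNA hosts were nearly all measurable, with 19 of 21 tested, and all 19 were well above background on all 8 arrays. Of the 35 miRNA hosts, 20 were tested, 15 of them detected on all 8 arrays, and both MALAT1 and NEAT1 were detected throughout. The 11 names without any probe above background on any array were MIR1-1HG, MIR217HG, MIR3663HG, MIR381HG, MIR3976HG, MIR4500HG, MIR663AHG, MIR670HG, MIR7515HG, MIRLET7DHG and SNHG22, and the tests say nothing about them. MIR133A1HG, MIR137HG, MIR155HG, MIR7-3HG and SNHG23 were above background on some arrays but not on both of any group, and MIR210HG missed the filter for another reason given with its values.

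The arrays had 41.8% to 49.8% of gene probes well above background and no saturated spot. The squamous character of the cells was seen in 10 of 10 epithelial markers detected on all arrays, while of 11 markers of other cell types 5 were detected on all arrays and 3 on none. The summed signal of the squamous markers ran from 9.09 to 9.56 across arrays, and that of the other markers from 2.55 to 2.99. With miR-629-3p, KRT14, KRT17 and CDH1 fell, DSG3 rose, and the endothelial marker VWF rose by 0.90 (adjusted p = 0.0146), or by 0.63 after normexp background correction. CDH1 did not pass under quantile normalization (adjusted p = 0.0671) or in the authors' values (0.0620). The part of these markers in the values of the host genes was not tested. By the barcode in each scanner file, all 8 arrays lay on 1 slide, with miR-629-3p and miR-210-3p in its first row and miR-874-3p and NC in its second. The row therefore cannot be told apart from the group in the comparisons of miR-629-3p and of miR-210-3p with NC, whereas miR-629-3p against miR-210-3p and miR-874-3p against NC lie within a row. For probes detected on no array, the median difference from NC was -0.75 for miR-629-3p, -0.55 for miR-210-3p and -0.15 for miR-874-3p. The labels do not say whether replicate arrays came from separate transfections, so p-values measure the spread between these arrays, which may be technical. In a bulk sample, fewer cells expressing a transcript and less of it per cell cannot be told apart.

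Against NC, miR-629-3p moved 9 of the 41 host genes at an adjusted p under 0.05 (from limma, Benjamini-Hochberg adjusted across the 21283 genes, as everywhere below), or 22.0%, beside 16.8% of all genes tested. Of these, 7 rose, against 9.28% of all genes (SNHG20, SNHG16, MALAT1, MIR181A2HG, MIR22HG, MIR100HG and MIR31HG), and 2 fell, against 7.47% (MIR17HG and MIR503HG). By the study's own threshold, an unadjusted p under 0.05 and at least 2-fold, 1 host gene was called (MIR762HG), or 2.44% beside 5.26% of all genes. With miR-210-3p, 2 host genes rose at the adjusted threshold (MIR100HG and SNHG16), or 4.88% beside 6.05% of all genes in either direction and 3.85% that rose, and 1 was called at 2-fold (MIR181A1HG) beside 3.14%. With miR-874-3p, 1 rose at the adjusted threshold (MIR31HG), 2.44% beside 0.423% of all genes in either direction and 0.216% that rose, and 3 were called at 2-fold (MIR31HG, MIR762HG and MIR503HG), 7.32% beside 2.02%. The count of 9 with miR-629-3p fell to 1 and 0 when its array 1 or 2 was left out, to 5 and 5 without either miR-210-3p array, and to 4 and 1 without NC array 1 or 2. The count of 2 with miR-210-3p became 0 without either of its own arrays, 1 without either NC array and 4 without either miR-874-3p array. The count of 1 with miR-874-3p became 0 without any single array of NC or of the other mimics and 2 without its own array 1.

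Across the 4 groups, 14 of the 41 host genes differed by the F test at an adjusted p under 0.05, or 34.1%, beside 25.2% of all genes. They were 9 miRNA hosts (MIR181A2HG, MIR100HG, MIR31HG, MIR22HG, MIR17HG, MIR503HG, MIR205HG, H19 and MIR4435-1HG) and 5 snoRNA hosts by name (SNHG16, SNHG7, SNHG20, SNHG10 and SNHG15). Of the latter, SNHG20 and SNHG10 span no annotated snoRNA. Leaving out any single array other than those of miR-874-3p lowered that count to between 0 and 9.

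**Figure D1:**
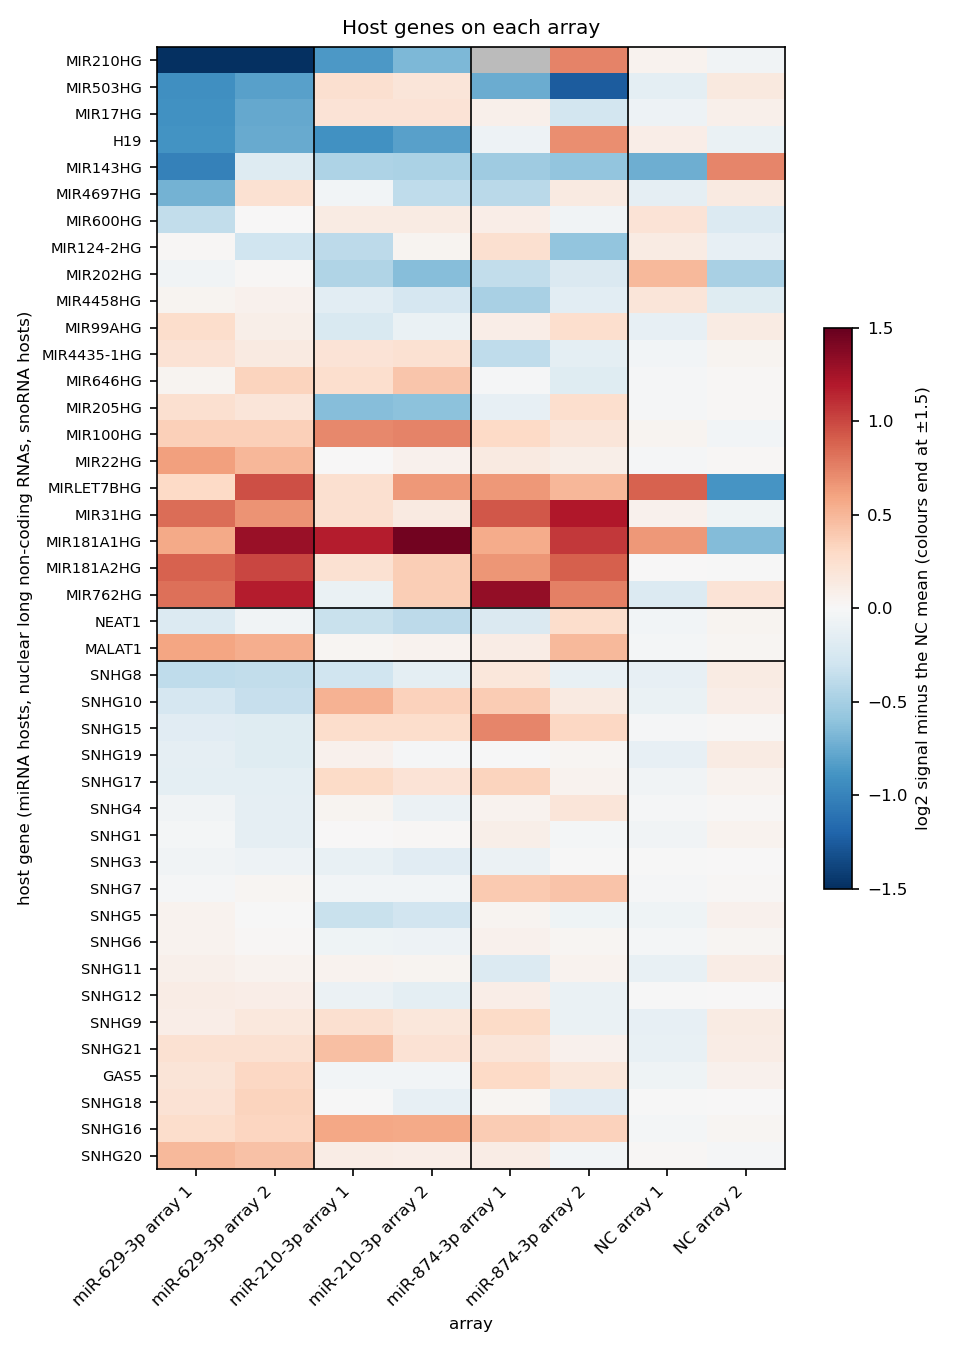
Colour gives, for each host gene (rows) on each of the 8 arrays (columns), the log2 signal of its tested probe minus the mean of the NC arrays, with colours ending at ±1.5 and grey for the flagged MIR210HG spot. MIR210HG reaches the end of the scale on both miR-629-3p arrays, and the rows of the 19 snoRNA hosts are pale on most arrays.

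MIR210HG, the host of miR-210, showed the widest separation of groups. Its single probe, A_22_P00002306 (hg19 chr11:567565-567624, minus strand), read -3.25 and -3.51 in miR-629-3p cells and -0.67 and -0.48 in miR-210-3p cells. It read 0.24 and 0.14 on the NC arrays and 0.93 on miR-874-3p array 2, while the spot on miR-874-3p array 1 was flagged as an outlier by the scanner software (2.10 if kept). The groups did not overlap: both miR-629-3p arrays lay far below all others, and both miR-210-3p arrays lay between them and NC. Because of the flagged spot the probe failed the filter, so it is not among the 41 and was fitted with that value missing, a setting chosen after the data were seen. In that fit MIR210HG fell with miR-629-3p by 3.57 on the log2 scale, or 11.8-fold (SE 0.13, adjusted p = 0.00135), with the spot above background on 1 of 2 miR-629-3p arrays. The part of the lower readings of undetected probes in that value was not tested. The same difference was -3.52 with the flagged spot kept (adjusted p = 0.00795) and -1.07 after normexp background correction, which compresses dim signals (adjusted p = 0.000327). With miR-210-3p it fell by 0.77 (1.70-fold, adjusted p = 0.0441). After normexp that difference was -0.40 (adjusted p = 0.0107), and with the flagged spot kept the difference of -0.73 had an adjusted p of 0.289. The value with miR-874-3p rests on 1 array, with a difference of 0.75 (adjusted p = 0.137). Within the first row of the slide, miR-629-3p stood below miR-210-3p by a log2 difference of -2.80 (SE 0.13, adjusted p = 0.00213), with the same 1 of 2 miR-629-3p arrays above background, and by -0.67 after normexp (adjusted p = 0.000859).

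The RefSeq promoter window of MIR210HG, from 250 bases before to 50 after the annotated start, holds the letters ACGTG, the core of a hypoxia response element, at position -170 from the start. It is shown in capitals within 25 bases of the window because this host is known for its response to hypoxia: ccccgggcagACGTGcagaaaagaa (chr11:568613-568637, GRCh38.p14, minus strand). ACGTG was searched on both strands and occurs in 21.6% of 27305 promoter windows of the same length, so the match is common and describes the letters only.

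MIR17HG, the primary transcript of the miR-17 cluster, read 0.32 and 0.45 in miR-629-3p cells, 1.43 and 1.43 in miR-210-3p cells, 1.30 and 0.95 in miR-874-3p cells, and 1.14 and 1.31 in NC cells. Both miR-629-3p arrays lay below all 6 others. The probe, hg19 chr13:92002596-92002655, thus fell by 0.84 against NC, or 1.79-fold (SE 0.14, adjusted p = 0.0165). Against miR-210-3p, in the same row of the slide, it fell by 1.04 (adjusted p = 0.00761), while miR-210-3p and miR-874-3p differed from NC by 0.20 and -0.10 (95% intervals -0.13 to 0.54 and -0.44 to 0.24). The other probes of MIR17HG were dimmer: 1 at hg19 chr13:92000154-92000213 gave -0.93 with a wide interval (adjusted p = 0.202), and 1 at chr13:92003022-92003081, detected on 3 of 8 arrays, gave 0.01.

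MIR503HG, the host of miR-503 on the X chromosome, was low with both miR-629-3p and miR-874-3p. Its probe (hg19 chrX:133677412-133677471) read 1.42 and 1.52 in miR-629-3p cells, 2.57 and 2.51 in miR-210-3p cells, 1.58 and 1.08 in miR-874-3p cells, and 2.18 and 2.48 in NC cells. The 4 arrays of miR-629-3p and miR-874-3p lay below the 4 arrays of miR-210-3p and NC without overlap. It fell with miR-629-3p by 0.87 (1.82-fold, SE 0.19, adjusted p = 0.0334). With miR-874-3p it was called at 2-fold with a difference of -1.0 that did not pass the adjusted threshold (adjusted p = 0.103), within 1 row of the slide. All 3 MIR503HG probes lay below NC in both groups, by -0.63 to -0.87 with miR-629-3p and by -0.47 to -1.0 with miR-874-3p, whereas with miR-210-3p they ran from -0.04 to 0.21.

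MIR31HG, the host of miR-31, and MIR181A2HG, the host of a miR-181a and miR-181b pair, were high in the groups in which MIR503HG was low. MIR31HG read 1.70 and 1.53 in miR-629-3p cells, 1.1 and 1.0 in miR-210-3p cells, 1.79 and 2.05 in miR-874-3p cells, and 0.92 and 0.79 in NC cells. It rose by 0.76 with miR-629-3p (1.69-fold, SE 0.12, adjusted p = 0.0164) and by 1.06 with miR-874-3p (2.09-fold, adjusted p = 0.0447). This is the only host gene of the 41 that passed both thresholds with miR-874-3p, and its adjusted p there ran from 0.00815 to 0.469 over the alternatives and left-out arrays. The tested probe lies at hg19 chr9:21454716-21454775, towards the 3′ end of this minus-strand gene. A second MIR31HG probe towards the 5′ end, at chr9:21559488-21559547, read 1.16 and 1.1 in miR-629-3p cells against 1.28 and 1.47 in NC cells, a difference of -0.24 (adjusted p = 0.171), and gave 0.20 with miR-874-3p (adjusted p = 0.413). The probes of MIR31HG therefore disagreed in direction with miR-629-3p, and the rise holds for the 3′ probe only. MIR181A2HG was dimmer and read -1.03 and -0.92 in miR-629-3p cells, -1.69 and -1.55 in miR-210-3p cells, -1.25 and -1.02 in miR-874-3p cells, and -1.92 and -1.92 in NC cells. It rose by 0.94 with miR-629-3p (1.92-fold, SE 0.10, adjusted p = 0.00745), the smallest adjusted p of the 41 in that comparison, and the differences of 0.30 for miR-210-3p and 0.78 for miR-874-3p did not pass (adjusted p = 0.149 and 0.0600). The size of its rise with miR-629-3p depended on the background correction, at 0.30 after normexp.

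**Figure D2:**
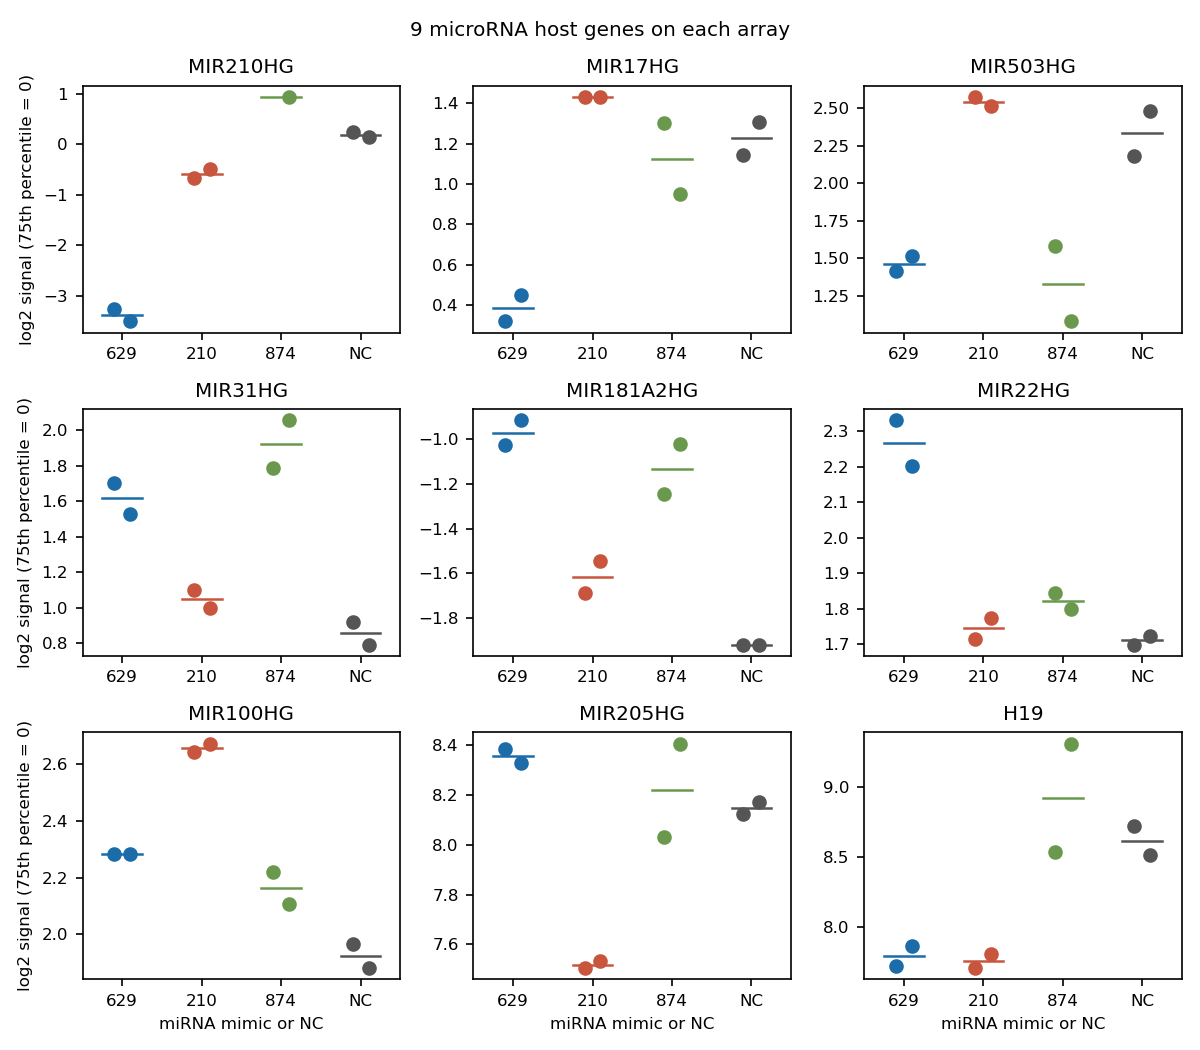
Points are the log2 signals of 9 miRNA host genes on each array and horizontal lines the group means, with a separate vertical scale in each panel (n = 2 arrays per group, 1 for MIR210HG with miR-874-3p). The miR-629-3p arrays lie lowest for MIR210HG and MIR17HG, and MIR503HG and MIR31HG separate miR-629-3p and miR-874-3p from the other groups in opposite directions.

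MIR22HG, the host of miR-22, moved with miR-629-3p. It read 2.33 and 2.20 in miR-629-3p cells, 1.72 and 1.77 in miR-210-3p cells, 1.84 and 1.80 in miR-874-3p cells, and 1.70 and 1.72 in NC cells, and rose by 0.56 with miR-629-3p (1.47-fold, SE 0.08, adjusted p = 0.0116). Against miR-210-3p in the same row the rise was 0.52 (adjusted p = 0.00977), and a second, dimmer MIR22HG probe gave 0.24 against NC (adjusted p = 0.169). MIR100HG, which carries miR-100, let-7a-2 and miR-125b-1, was highest with miR-210-3p. It read 2.29 and 2.28 in miR-629-3p cells, 2.64 and 2.67 in miR-210-3p cells, 2.22 and 2.11 in miR-874-3p cells, and 1.97 and 1.88 in NC cells. It rose by 0.73 with miR-210-3p (1.66-fold, SE 0.07, adjusted p = 0.0119) and by 0.36 with miR-629-3p (adjusted p = 0.0298), and miR-629-3p stood below miR-210-3p by -0.37 (adjusted p = 0.0218).

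MIR205HG, the host of the epithelial miR-205, was low with miR-210-3p. It read 7.51 and 7.53 there, 8.38 and 8.32 in miR-629-3p cells, 8.03 and 8.40 in miR-874-3p cells, and 8.12 and 8.17 in NC cells, so both miR-210-3p arrays lay below all others. The difference from NC was -0.63 and just missed the adjusted threshold (SE 0.13, adjusted p = 0.0519), while miR-629-3p stood above miR-210-3p by 0.83 (adjusted p = 0.0115). The 3 probes of MIR205HG gave -0.55 to -0.63 with miR-210-3p, and the dimmest of them passed when every probe was tested (adjusted p = 0.0426). Squamous markers moved beside it: 4 of 10 fell with miR-210-3p at the adjusted threshold (KRT5, KRT14, KRT17 and SFN), beside 2.2% of all genes that fell. Of the 10, 8 lay below NC, and the highest difference was 0.39. The summed signal of the 10 was 9.09 and 9.09 in miR-210-3p cells against 9.49 and 9.56 in NC cells. The part of these markers in the MIR205HG values was not tested.

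H19 split by the row of the slide. It read 7.72 and 7.86 in miR-629-3p cells and 7.71 and 7.80 in miR-210-3p cells, against 8.54 and 9.31 in miR-874-3p cells and 8.72 and 8.51 in NC cells. The differences from NC were -0.82 for miR-629-3p, -0.86 for miR-210-3p and 0.31 for miR-874-3p (SE 0.25, adjusted p = 0.0785, 0.103 and 0.589), and the second H19 probe gave -0.80, -0.93 and 0.29. All 4 arrays of the first row lay below all 4 of the second, so group and row cannot be told apart here, and within the first row miR-629-3p and miR-210-3p differed by 0.04 (95% interval -0.58 to 0.66). The F test over the 4 groups gave an adjusted p of 0.0403.

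The remaining calls among the miRNA hosts were dim or small. MIR762HG read -3.05 and -2.69 in miR-629-3p cells, -3.97 and -3.50 in miR-210-3p cells, -2.55 and -3.12 in miR-874-3p cells, and -4.08 and -3.67 in NC cells, and was not well above background on either NC array or either miR-210-3p array. MIR181A1HG, from the other miR-181 locus, read -3.24 and -2.96 in miR-210-3p cells, -3.84 and -3.12 in miR-629-3p cells, -3.86 and -3.36 in miR-874-3p cells, and -3.76 and -5.07 in NC cells, and was likewise not well above background in NC. Set against the dimmest signal that counts as detected, neither tested probe gave a fold above 1 against NC. For both, these calls at 2-fold thus rest on signals at the edge of background (adjusted p = 0.0635 for MIR762HG with miR-629-3p and 0.160 for MIR181A1HG with miR-210-3p). A second MIR181A1HG probe read -1.63 and -3.08 in miR-210-3p cells, above background on both arrays, and -4.79 and -4.45 in NC cells. Its difference of 2.27 did not pass the adjusted threshold when every probe was tested. MIR4435-1HG differed across groups by the F test (adjusted p = 0.0467), with differences from NC of 0.18 for miR-629-3p, 0.22 for miR-210-3p and -0.27 for miR-874-3p. Its 3 probes disagreed in sign in each comparison (-0.11 to 0.18, -0.01 to 0.22 and -0.27 to 0.16 in the same order). The MIR4435-1HG sequence is shared with a near-identical copy elsewhere on chromosome 2, so its signal is uncertain. The other 9 tested miRNA hosts, namely MIR124-2HG, MIR143HG, MIR202HG, MIR4458HG, MIR4697HG, MIR600HG, MIR646HG, MIR99AHG and MIRLET7BHG, passed no threshold in the comparisons with NC or across groups.

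MALAT1, an abundant nuclear RNA of nuclear speckles, rose with miR-629-3p. Its brightest probe read 5.24 and 5.18 in miR-629-3p cells, 4.67 and 4.69 in miR-210-3p cells, 4.76 and 5.13 in miR-874-3p cells, and 4.62 and 4.68 in NC cells, so both miR-629-3p arrays stood above the rest. The difference from NC was 0.57 (1.48-fold, SE 0.13, adjusted p = 0.0374), and its other probes gave 0.37 to 0.52 there. With miR-210-3p the MALAT1 probes disagreed: 1 near the 3′ end (hg19 chr11:65273871-65273930) rose by 0.81 (adjusted p = 0.0336 when every probe was tested), and the others gave -0.05 to 0.32. NEAT1, the scaffold of paraspeckles, read 6.15 and 6.31 in miR-629-3p cells, 6.02 and 5.96 in miR-210-3p cells, 6.14 and 6.62 in miR-874-3p cells, and 6.32 and 6.39 in NC cells. It passed no threshold, with differences of -0.13, -0.37 and 0.03 in the same order of mimics (SE 0.16, 95% intervals -0.53 to 0.28, -0.77 to 0.04 and -0.38 to 0.43). Among 11 paraspeckle proteins, 1 fell with miR-629-3p (NONO, -0.33, adjusted p = 0.0411, or 0.0658 in the authors' values), beside 7.47% of all genes. Under the other mimics 0 of the 11 moved at the adjusted threshold. An unadjusted p under 0.05 in limma was reached by 2 for miR-210-3p, beside 26% of all genes. For miR-874-3p it was reached by 2, beside 16.4%.

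The differences of the snoRNA hosts from NC were small in size. Of the 19 tested, 0 were called at 2-fold in any comparison with NC, beside 5.26%, 3.14% and 2.02% of all genes. The 19 were brighter, with a median signal of 5.60 against 1.43 for the 17401 genes detected on all arrays. Of those 17401, 303 were called higher and 227 lower for miR-629-3p. The counts were 121 higher and 126 lower for miR-210-3p, then 57 and 21 for miR-874-3p. These shares are below those of all genes, so 0 of 19 does not set the snoRNA hosts apart. At the adjusted threshold 2 rose with miR-629-3p (SNHG16 and SNHG20), 1 rose with miR-210-3p (SNHG16), none moved with miR-874-3p, and 0 fell. At an unadjusted p under 0.05 in limma the numbers were 5, 4 and 4 of the 19 in that order, or 26.3%, 21.1% and 21.1%, beside 33.6%, 26% and 16.4% of all genes. Across the groups, counts at the adjusted threshold lay near the shares of all genes, with 5 of the 19 past the F test, or 26.3% beside 25.2%, and 4 differing between miR-629-3p and miR-210-3p, or 21.1% beside 22.6%. At an unadjusted p under 0.05 in the latter comparison there were 9, or 47.4% beside 37.3%. Their median size of change was 0.15 for miR-629-3p, 0.12 for miR-210-3p and 0.07 for miR-874-3p, against 0.21, 0.17 and 0.13 for all genes detected on all 8 arrays and 0.36, 0.21 and 0.24 for the 15 miRNA hosts detected on all arrays. All 19 lay between the 5th and 95th percentiles of all genes in each of the 3 comparisons. The median standard error of their differences was 0.09.

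**Figure D3:**
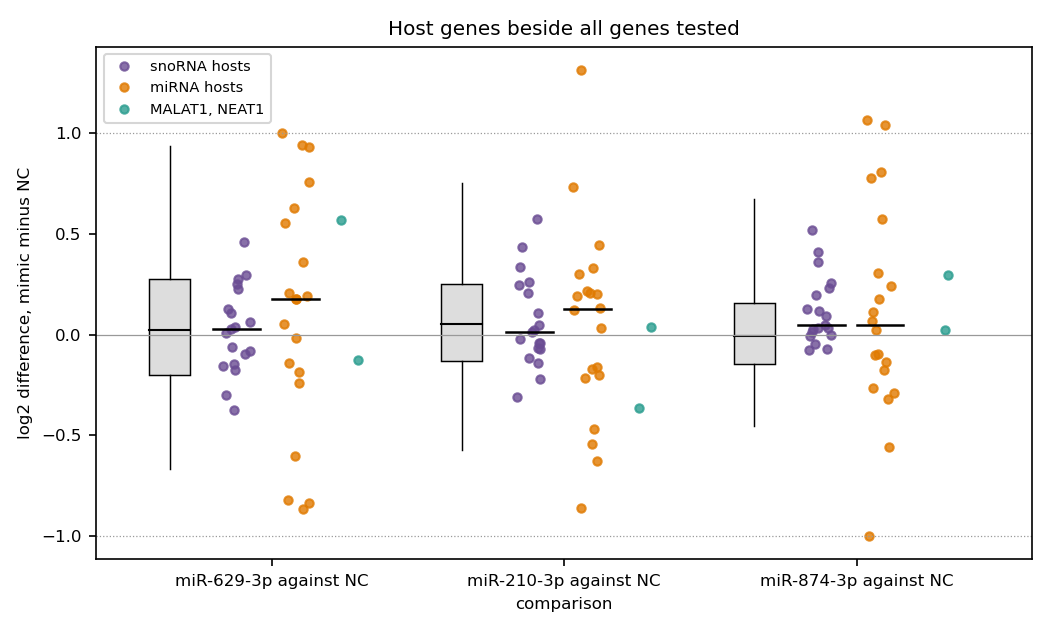
Points are log2 differences from NC for the snoRNA hosts (19), miRNA hosts (20) and MALAT1 and NEAT1, with black bars at the medians of the first 2 classes, beside a grey box (25th to 75th percentile, line at the median) with whiskers to the 5th and 95th percentiles of all 21283 genes. The dotted lines mark 2-fold. The snoRNA hosts lie inside the whiskers, which span most genes by definition, in all 3 comparisons.

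SNHG16 had the largest difference from NC among the tested probes of the 19 snoRNA hosts, while the group means of SNHG10 and SNHG15 ranged wider (0.73 and 0.70, against 0.57 for SNHG16). It read 7.21 and 7.27 in miR-629-3p cells, 7.52 and 7.51 in miR-210-3p cells, 7.32 and 7.29 in miR-874-3p cells, and 6.92 and 6.97 in NC cells, so all 6 mimic arrays lay above both NC arrays. It rose by 0.57 with miR-210-3p (1.49-fold, SE 0.07, adjusted p = 0.0148) and by 0.30 with miR-629-3p (adjusted p = 0.0355), and the difference of 0.36 with miR-874-3p did not pass (adjusted p = 0.0974). SNHG20 rose by 0.46 with miR-629-3p (1.38-fold, SE 0.08, adjusted p = 0.0180), or by 0.30 after normexp, and differed by 0.11 and 0.03 with the other mimics. SNHG15 read 5.15 and 4.74 in miR-874-3p cells, 4.68 and 4.69 in miR-210-3p cells, 4.25 and 4.24 in miR-629-3p cells, and 4.40 and 4.44 in NC cells. Its F test passed (adjusted p = 0.0466) while its difference of 0.52 with miR-874-3p did not (adjusted p = 0.167), though all 3 SNHG15 probes lay above NC there, by 0.52 to 0.87.

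SNHG7 and SNHG10 differed across the groups, and no comparison of theirs with NC passed the adjusted threshold. SNHG7 was 0.41 above NC with miR-874-3p (SE 0.06, adjusted p = 0.0749, F test 0.0181), and 3 of its 4 probes gave 0.41 to 0.50 there while the dimmest gave -0.07. SNHG10 was 0.43 above NC with miR-210-3p and -0.30 with miR-629-3p, and the difference between these mimics of -0.73 passed (adjusted p = 0.0155). SNHG5 showed a small and even shift with miR-210-3p: its 6 probes gave -0.24 to -0.31 against NC, and the tested one missed the adjusted threshold (adjusted p = 0.0805). GAS5, a growth-arrest transcript with 11 snoRNAs in its span, read 8.54 and 8.66 in miR-629-3p cells, 8.31 and 8.31 in miR-210-3p cells, 8.65 and 8.52 in miR-874-3p cells, and 8.29 and 8.41 in NC cells. Its differences of 0.25, -0.04 and 0.23 passed no adjusted threshold (95% intervals 0.03 to 0.47, -0.26 to 0.18 and 0.01 to 0.45). SNHG1, with 9 snoRNAs, read 5.94 and 5.84, 5.97 and 5.99, and 6.06 and 5.93 with the 3 mimics and 5.92 and 6.02 in NC cells, and no difference from NC passed (95% intervals -0.29 to 0.13, -0.19 to 0.22 and -0.18 to 0.24).

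**Figure D4:**
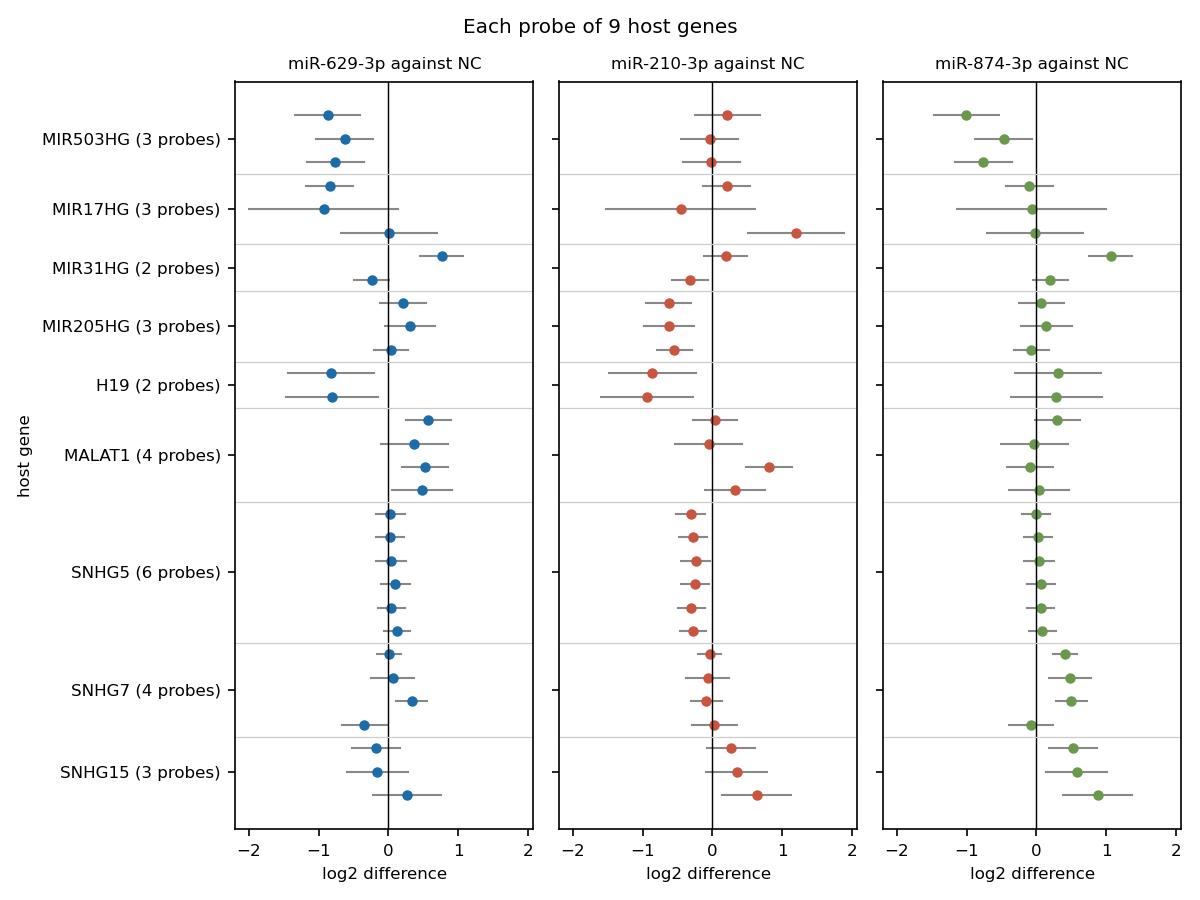
Each point is the log2 difference from NC of 1 probe with its 95% interval (line), for all tested probes of 9 host genes, in the fit that keeps every probe, ordered within a gene from bright to dim. The H19 and SNHG5 probes lie close together in each comparison. The widest spreads are those of MIR31HG, MIR17HG and SNHG7 with miR-629-3p, MIR17HG and MALAT1 with miR-210-3p, and MIR31HG and SNHG7 with miR-874-3p.

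Several host genes had more than 1 tested probe, which gives a second reading of the same transcript name. Of 23 names with at least 2 tested probes (63 probes), all probes had the same sign in 18 for miR-629-3p, 17 for miR-210-3p and 16 for miR-874-3p. The median spread between the probes of a name was 0.24, 0.15 and 0.11, and it was largest for MIR31HG with miR-629-3p (1.00) and miR-874-3p (0.86) and for MIR17HG with miR-210-3p (1.65).

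In the RefSeq annotation of GRCh38.p14, 16 of the 19 tested snoRNA hosts span at least 1 annotated snoRNA, 48 in all, with GAS5 holding the most. SNHG10, SNHG20 and SNHG21 span none, and SNHG20 spans an miRNA gene, MIR6516. MALAT1 spans neither a snoRNA nor an miRNA. Many genes of the translation machinery start transcription within a run of pyrimidines (C or T), and snoRNA hosts are known to share this with them. The first 5 bases from the annotated start were all C or T in 5 of 17 snoRNA hosts with a promoter sequence (29.4%), in 2 of 33 other hosts (6.06%), in 44 of 69 ribosomal protein genes (63.8%) and in 5.22% of all promoters.

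The protein-coding relatives of these hosts were followed on lists drawn up from general knowledge. With miR-629-3p, all 24 tested coding snoRNA hosts outside the ribosomal proteins were below NC, with a median of -0.26 beside 0.02 for all genes, and 4 fell at the adjusted threshold: DKC1 by 1.01, CCT6A by 0.68, NAP1L4 by 0.36 and ATP5F1B by 0.32. Under quantile normalization 21 of the 24 were below NC, and under every scaling tried the list's median was below 0 (-0.30 to -0.18). Of 8 core proteins of snoRNP particles, 2 fell: DKC1, the pseudouridine synthase, which is on both lists (-1.01, adjusted p = 0.0118), and FBL, the ribose methyltransferase fibrillarin (-0.45, adjusted p = 0.0173), with a list median of -0.35. The 22 coding hosts among ribosomal protein genes had a median of -0.07, with RPL4 lower (-0.30, adjusted p = 0.04996) and RPL27A higher (1.41, adjusted p = 0.00163, or 0.63 after normexp). Non-coding hosts under other names gave 2 higher and 1 lower of 7, with LINC-PINT at 1.33, EPB41L4A-AS1 at 0.41 and MEG3 at -0.46, and of 10 nonsense-mediated decay factors UPF1 and UPF3B rose (0.34 and 0.31). These calls stand beside 9.28% of all genes that rose and 7.47% that fell with miR-629-3p. RPL4 and ATP5F1B did not pass under quantile normalization (adjusted p = 0.216 and 0.0571) or in the authors' values (0.0778 and 0.0510), nor UPF3B with median centring (0.0559). Among the 24 coding snoRNA hosts, EIF4A2 fell with miR-210-3p by 0.57, beside 2.2% of all genes that fell. With miR-874-3p 0 genes on these lists passed the adjusted threshold in limma. At an unadjusted p under 0.05, which 16.4% of all genes reached, that comparison had 2 of the 24 coding hosts, 1 of the 22 ribosomal ones, 3 of the 7 non-coding hosts, 0 of the 8 core proteins and 1 of the 10 decay factors.

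**Figure D5:**
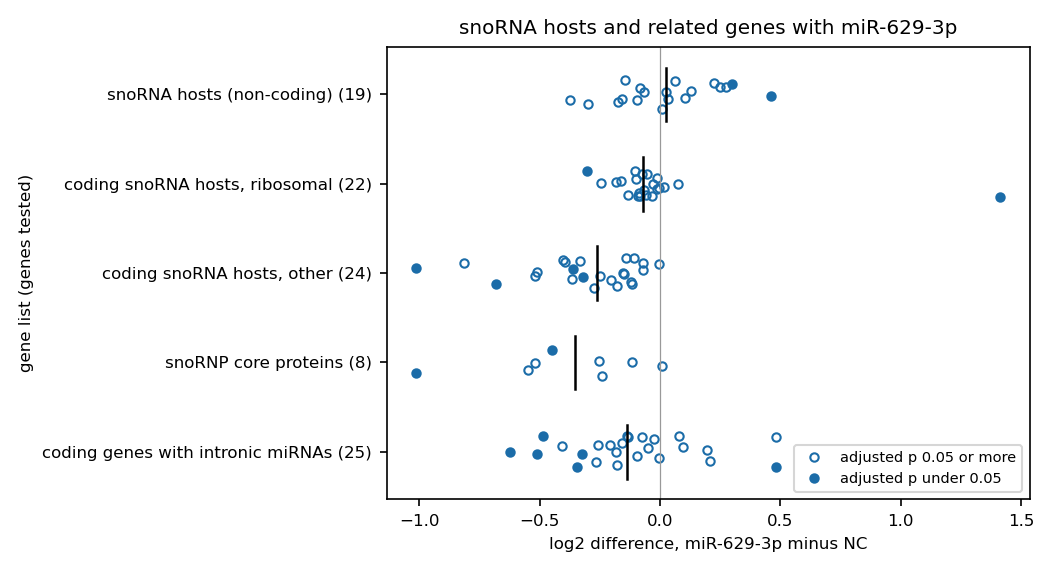
Each point is the log2 difference of miR-629-3p from NC for 1 gene, filled where the adjusted p was under 0.05, with a black bar at the median of its list and the number of genes tested in brackets. The 19 non-coding snoRNA hosts centre near 0, and the 24 coding snoRNA hosts outside the ribosomal proteins lie below 0.

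TLE3 and KLHL3, the coding genes that carry miR-629 and miR-874, were read on the same arrays. TLE3, a transcriptional co-repressor, read -1.34 and -1.47 in miR-629-3p cells, -0.86 and -0.82 in miR-210-3p cells, -0.91 and -0.98 in miR-874-3p cells, and -0.80 and -0.76 in NC cells. Its signal was lowest on both arrays that received the mimic of its own miRNA, and it fell by 0.62 (1.54-fold, SE 0.08, adjusted p = 0.00969), or by 0.25 after normexp. KLHL3, an adaptor of a ubiquitin ligase, read -1.65 and -1.41 in miR-874-3p cells and -1.24 and -1.19 in NC cells. It read -1.04 and -0.97 in miR-629-3p cells and -1.17 and -1.31 in miR-210-3p cells. KLHL3 was thus also lowest on both arrays of its own mimic, but the difference from NC of -0.31 did not pass (adjusted p = 0.235). Of the 25 coding genes with intronic miRNAs, 5 fell with miR-629-3p (TLE3, MCM7, PANK2, COPZ1 and EGFL7), beside 7.47% of all genes, and 1 rose (CTDSPL), beside 9.28%. PANK2 did not pass after normexp (adjusted p = 0.0965), EGFL7 did not under quantile normalization (0.0591), and neither did in the authors' values (0.0662 and 0.0742). With miR-210-3p 1 fell (DALRD3), beside 2.2% of all genes, and with miR-874-3p 0 moved at the adjusted threshold, where 5 had an unadjusted p under 0.05, beside 16.4%.

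Comparing miR-629-3p with miR-210-3p within the first row of the slide, 12 of the 41 host genes differed at the adjusted threshold, or 29.3%, beside 22.6% of all genes. Beside 9.83% of all genes that were higher and 12.7% that were lower, the 7 that were higher with miR-629-3p were SNHG5, SNHG20, MALAT1, MIR181A2HG, MIR22HG, MIR205HG and MIR31HG, and the 5 that were lower were SNHG16, SNHG10, MIR17HG, MIR503HG and MIR100HG. Under quantile normalization the SNHG16 difference, -0.28, became -0.16 and did not pass. MIR17HG and MIR503HG were also called at 2-fold, with differences of -1.04 and -1.08 (2.06-fold and 2.11-fold), or 4.88% of the 41 beside 5.61% of all genes. The 12 became 0, 2, 0 and 0 when miR-629-3p array 1 or 2 or miR-210-3p array 1 or 2 was left out.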

How the data were processed

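The labels describe SAS cells 48 h after transfection and 100 ng of total RNA per array, with 2 arrays in each of 4 groups. The authors deposited the scanner output of Agilent Feature Extraction 11.5.1.1, in which each spot has a background-subtracted intensity, and a table of log2 values of the same arrays. That deposited log2 table matched the log2 intensity minus about the 75th percentile of each array and was used as an alternative only. Probe coordinates are hg19, per the file headers.

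Spots flagged as outliers were removed, log2 intensities of replicate spots were averaged per probe, and each array's 75th percentile over gene probes was subtracted. Probes lacking a value on any of the 8 arrays, or for which no group had both arrays well above background, were left out, and the brightest probe stood for each gene name. limma 3.58.1 in R 4.3.3 (lmFit and eBayes over all 8 arrays, with the Benjamini-Hochberg adjustment over all genes) was tested on simulated data and gave the p-values, apart from those named as the methods' t-test and ANOVA. The number of arrays limits the precision. Named host genes are those called against NC or with an F test adjusted p under 0.05, with values on every array for the 12 with the largest change and for well-known hosts. A result on a related gene list is not reported here. The members, gene lists and markers were chosen with earlier results of these data known. Alternatives covered background correction, scaling, filters, the choice of probe, the test and each array left out.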

Additional observations from a re-analysis of the deposited data

How the results depend on the processing

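With 2 arrays in a group, counts of host genes moved with the setting, and so did some single values. The difference of MIR181A1HG between miR-210-3p and NC, 1.31, ran from 0.13 to 1.49 over the alternatives with all arrays. Calls at 2-fold, which numbered 1 for miR-629-3p, 1 for miR-210-3p and 3 for miR-874-3p, became 0, 0 and 0 with normexp (and 0 in place of 2 for miR-629-3p against miR-210-3p) and 0, 0 and 1 with quantile normalization. For miR-629-3p the count was 0 with median centring, 2 with the authors' values, 2 with outlier spots kept, 2 without a detection filter and 2 with single missing values allowed, a setting chosen after seeing the data. Requiring detection on all 8 arrays gave 0 calls for miR-629-3p and 0 for miR-210-3p at 2-fold, as did a floor at the dimmest detected signal (0 and 0), under which the fitted difference of the dim MIR762HG between miR-629-3p and NC went from 1.00 to -0.0404. The cause was not tested.

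At the adjusted threshold, miR-210-3p gave 6 host genes with normexp, 4 with the floor, 5 with an eBayes trend, 0 without a filter and 0 with only the groups compared, in place of 2 (and 0 calls at 2-fold in the last fit). With every probe kept, 4 of the 81 host probes passed with miR-210-3p and 3 were called at 2-fold. miR-874-3p gave 3 with normexp, 2 on probes detected on all arrays, 4 with the trend, 0 without a filter and 0 with only the groups compared, in place of 1. For miR-629-3p against miR-210-3p the 12 became 2 without a filter. With every probe kept, 22 of the 81 host probes differed there, 4 were called at 2-fold, and 22 passed the F test. These are counts of probes, several of which share a gene, and not of the 41 genes. The methods' t-test and ANOVA, after adjustment, gave 0, 0 and 0 against NC, 4 for miR-629-3p against miR-210-3p and 8 across groups, and called 0, 0 and 1 at 2-fold, with 14, 11 and 4 host genes at an unadjusted p under 0.05.

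With single arrays left out, calls at 2-fold ran from 0 to 4 for miR-629-3p, 0 to 3 for miR-210-3p, 1 to 5 for miR-874-3p and 2 to 3 between miR-629-3p and miR-210-3p. Counts at the adjusted threshold ran from 0 to 10, 0 to 4, 0 to 2 and 0 to 15 in the same order, and the F test count from 0 to 17. MIR210HG was fitted in only 6 settings with all arrays and 7 with 1 array left out, against 14 and 8 for MALAT1. In these it kept its direction with miR-629-3p against NC, with differences from -3.57 to -1.07 and from -3.69 to -3.44 in that order.

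Replicate numbers did not pair the arrays (correlations of replicate differences -0.11 to 0.03). With the replicate block, the counts at the adjusted threshold were 5 with miR-629-3p, 0 with miR-874-3p and 7 for miR-629-3p against miR-210-3p, the F test count was 9, and miR-210-3p had 0 calls at 2-fold. The slide as a block was not run, since all arrays share 1 slide.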
